A study of Mus musculus with 6 samples.

Results

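The mitochondrial ribosome, or mitoribosome, is the particle inside mitochondria that makes the few proteins encoded by mitochondrial DNA, all of them subunits of the respiratory chain and ATP synthase. Its RNA comes from mitochondrial DNA, whereas its proteins are encoded in the nucleus, made in the cytosol and imported. A large subunit (39S) joins amino acids, and a small subunit (28S) holds the mRNA and reads its codons. In skeletal muscle, where contraction draws on oxidative phosphorylation, defects of these proteins are known causes of respiratory chain disease. The genes described here are the 78 of 34714 gene symbols in the count table that are named Mrpl or Mrps with a number, 49 for the large subunit (Mrpl) and 29 for the small subunit (Mrps). The rule uses the names alone, and it was set with earlier results of these data known.

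RNA came from whole gastrocnemius (Gas) muscles of 8-week-old untreated mice on standard chow, 3 WT and 3 miR-92b knockout (M92KO), and gave 6 libraries. M92KO mice lack miR-92b in every tissue (C57BL/6JGpt background, a single purchased line), so a difference in muscle need not start in muscle fibres. WT libraries carry the name C57 in the labels. The paper names C57BL/6 mice of matching age as its WT controls and describes its knockout mice as male. Neither the labels nor the paper say whether WT and M92KO mice were littermates. The microRNA itself was not analysed here, so its loss was not checked in these libraries, and neither were the genes of mitochondrial DNA, including the RNA parts of the mitoribosome. Library totals were between 38246649 and 48209846 counts in WT and between 33160508 and 37019640 counts in M92KO mice. Levels are given as CPM, counts scaled to library size with TMM factors of 0.981 to 1.03. Members had between 470 and 9982 counts in each library, and all 78 passed the filter on low counts that left 15788 genes. Exons of 33 members overlap another gene, 8 of them on the same strand, and such counts may hold reads of both. Errors written after ± are SD of 3 libraries for levels and SE for log2 fold changes. The SE is the size of the change over the square root of edgeR's F statistic, whose variance is partly shared over all genes tested. Both kinds of error rest on these samples alone, whose litter and batch the labels do not give.

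The 2 mature products of the deleted gene are shown because the seed, the bases a microRNA pairs with, is what a member's 3′-UTR would have to match. Sequences are RefSeq's for GRCm38.p6, 5′ to 3′, with the seed (bases 2 to 8) in capitals. The minus strand holds miR-92b-3p at chr3:89227126-89227147 and miR-92b-5p at chr3:89227165-89227188.
miR-92b-3p: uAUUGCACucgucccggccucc
miR-92b-5p: aGGGACGGgacguggugcaguguu

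Most mitoribosomal protein genes of both subunits had a small positive difference between M92KO and WT muscle, and few of these differences passed the test. In 60 of 78 members the WT and M92KO libraries overlapped. The largest difference was 22.0% (Mrpl47), with 3 libraries a group. Of 78 members, 66 (84.6%) had a positive difference, against 49.98% of all genes tested, and 64 lay within 10% of the WT level. Large subunit genes had a median log2 fold change of 0.077, with a range from -0.022 to 0.29, and 42 of 49 were positive. Small subunit genes had a median of 0.087, with a range from -0.094 to 0.21, and 24 of 29 were positive. The median over all genes tested was 0.00 on the same scale.

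At the study's threshold, an unadjusted p-value under 0.05, edgeR's quasi-likelihood test found 5 of 49 large subunit genes higher (10.2%) and 0 lower, and 3 of 29 small subunit genes higher (10.3%) and 0 lower. Among all genes tested, 5.47% were higher and 6.92% lower (12.4% in either direction), so the 8 members are a share of 10.3% against a background of 5.47%. Counts this small moved with single libraries. Without the first, the second and the third WT library 2, 3 and 1 large subunit genes were higher, without the second and the third M92KO library 8 and 1, and small subunit genes numbered 1 without any WT library and 5 without the first M92KO library. After Benjamini-Hochberg adjustment over all genes, 0 members and 0.0% of all genes had an adjusted p-value under 0.05, while 1955 genes had an unadjusted one. The smallest adjusted p-value was 0.256 in the large subunit (Mrpl32) and 0.325 in the small subunit (Mrps18b). DESeq2's Wald test gave an adjusted p-value under 0.05 to 2.19% of the genes it adjusted, and to 0 members. In 12 large and 5 small subunit genes every M92KO library was above every WT library, and in 1 small subunit gene, Mrps9, every M92KO library was below. Such separation upwards was seen in 8.77% of all genes and downwards in 9.58% (18.4% in either direction).

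**Figure D1:**
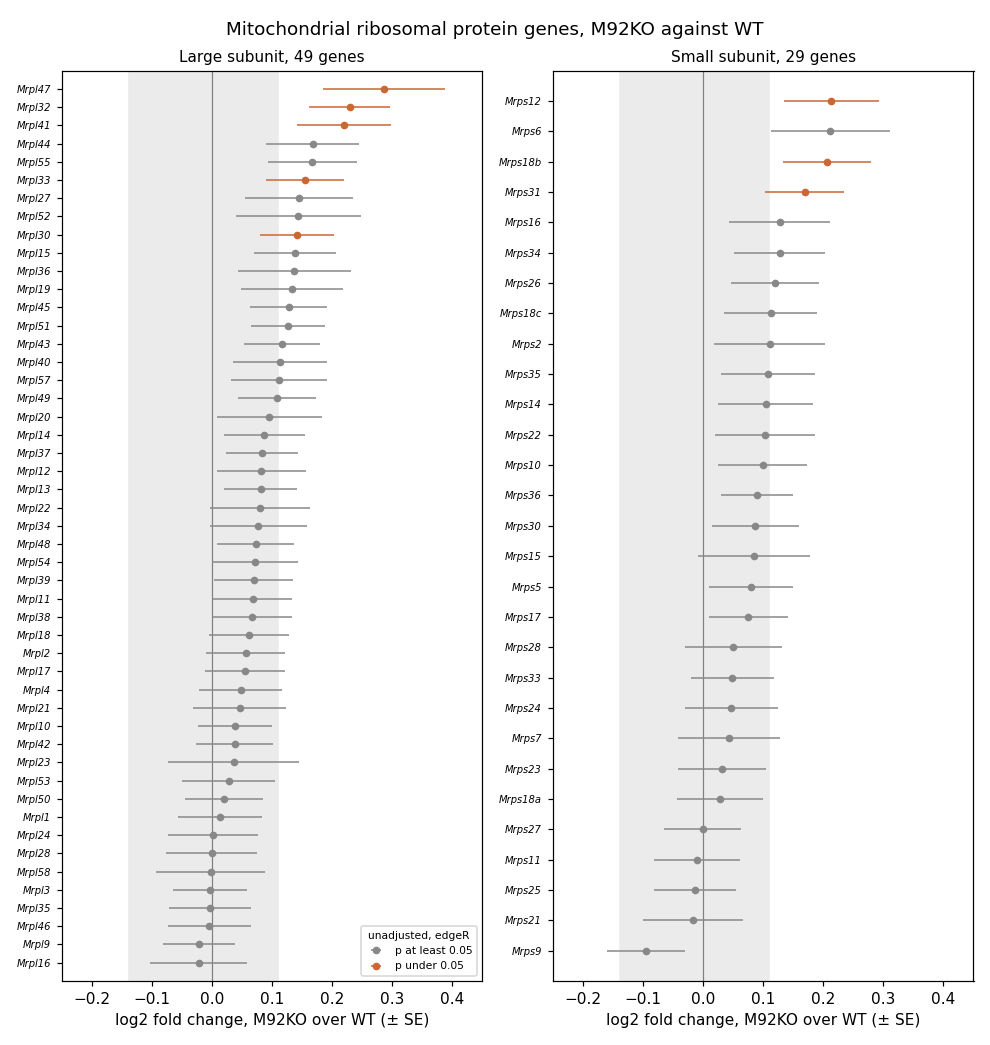
Log2 fold change of each member, M92KO over WT, with its SE (horizontal bars, 3 libraries a group), for the large subunit on the left and the small subunit on the right. Grey bands span the quartiles of all genes tested. Most points lie just right of 0, and the 8 members with an unadjusted p-value under 0.05 (orange) are all higher.

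Summed over the large subunit, the genes reached 2583, 2584 and 2546 CPM in the WT libraries and 2759, 2624 and 2753 CPM in the M92KO libraries. Their mean was 2571 ± 21.3 CPM in WT and 2712 ± 76.2 CPM in M92KO mice, 5.49% more, and the groups did not overlap. The small subunit summed to 1202, 1203 and 1201 CPM in WT and to 1315, 1201 and 1264 CPM in M92KO mice. Its mean was 1202 ± 1.05 CPM in WT and 1260.0 ± 57.02 CPM in M92KO mice, 4.81% more, and the groups overlapped because the second M92KO library stood at the WT level. WT sums lay closer together than M92KO sums in both subunits, a contrast that was not tested. For single members the median coefficient of variation was 3.80% in WT and 5.48% in M92KO mice.

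The M92KO libraries differed from each other in the same order in both subunits. Relative to the WT mean, the median large subunit gene was higher by 0.12 in the first, 0.035 in the second and 0.082 in the third M92KO library (log2 CPM), and 43, 33 and 41 of 49 genes were above the WT mean. For the small subunit the medians were 0.14, 0.013 and 0.088, with 24, 17 and 26 of 29 genes above. The first M92KO library was also the highest for cytosolic ribosomal protein genes, which build the ribosomes outside mitochondria, by 0.21 against -0.0076 and 0.027 in the others. For complex I, the entry of electrons into the respiratory chain, the 3 M92KO medians were 0.10, -0.049 and 0.067. The part of these library-wide movements in the members' differences was not tested.

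**Figure D2:**
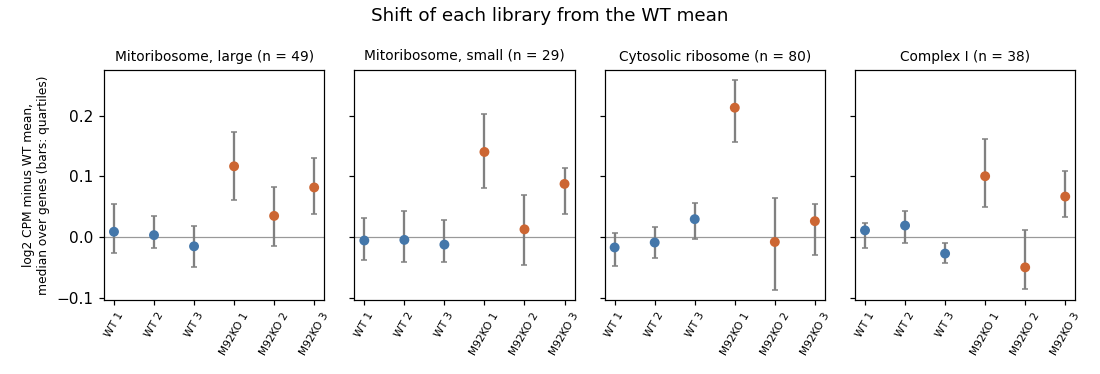
Median difference of each library from the WT mean (log2 CPM) over the genes of 4 lists, with quartiles over genes as bars and WT in blue, M92KO in orange. The first and the third M92KO library lie above WT for both mitoribosome subunits, and the second lies close to WT.

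Leaving out the first M92KO library left medians of 0.052 (large) and 0.047 (small), with 40 and 20 members positive, but it raised the counts of higher members to 7 and 5. Over all genes it raised the number with an unadjusted p-value under 0.05 to 2956. Member transcripts are short, with a median length of 1224.5 bases where the median tested gene has 2624. When each library's trend with transcript length and GC content was removed, the medians became 0.046 (large) and 0.035 (small), 39 and 20 members were positive, and 3 large and 1 small subunit genes were higher at the unadjusted threshold.

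Cytosolic ribosomal protein genes and complex I genes had mostly positive differences too. Of 80 cytosolic ribosomal protein genes tested, 70 were positive, with a median log2 fold change of 0.069, and 3 (3.75%) were higher and 0 lower at the unadjusted threshold, where 5.47% of all genes were higher. These calls became 2 upward and 4 downward when the first M92KO library was left out and 9 upward when the third was, while with length and GC offsets 0 were higher and 2 lower, and with the study's steps 0 passed. Of 38 complex I genes, 32 were positive, with a median of 0.035, and 1 (2.63%) was higher and 0 lower. That call was lost with library totals, upper quartile factors, DESeq2's Wald test, the study's steps, no filter on low counts, the replicate block, the offsets, and without any WT library or the third M92KO library. The members' medians of 0.077 and 0.087 stand beside these values, and no test compared the lists.

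Mrpl32 (chr13:14608184-14613165, minus strand) had the smallest p-value of all members. Gene positions are those of GENCODE M21 on GRCm38. Its protein is a large subunit component that the m-AAA protease of the inner membrane has to trim before the particle can be assembled. It was at 30.2, 28.3 and 27.8 CPM in WT and at 32.9, 33.8 and 34.5 CPM in M92KO mice, so the groups did not overlap. The difference was 17.2%, a log2 fold change of 0.23 ± 0.068 (SE), with an edgeR adjusted p-value of 0.256. Of the 8 members past the threshold it alone stayed under an unadjusted p-value of 0.05 in all 15 other settings and leave-outs, with log2 fold changes between 0.20 and 0.27.

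Mrpl47 (chr3:32725397-32737605, minus strand) had the largest difference. It stood at 27.3, 26.8 and 24.6 CPM in WT and at 27.9, 31.8 and 36.2 CPM in M92KO mice, with the first M92KO library barely above the highest WT library. The log2 fold change was 0.29 ± 0.10, which is 22.0%, and the edgeR adjusted p-value was 0.325. The M92KO values were spread out, with an SD of 4.14 CPM against 1.44 CPM in WT. With a library left out, the log2 fold change of Mrpl47 lay between 0.19 (without the third M92KO library) and 0.38 (without the first), and it missed the threshold without the third WT library, without the third M92KO library and with the study's steps. Exons of Mrpl47 overlap those of Ndufb5 and Actl6a on the other strand, and the strand setting of the counting is not given in the sources used here, so reads of these genes may not be told apart.

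Mrpl41 (chr2:24974117-24975098, minus strand), a large subunit protein also known for binding the apoptosis regulator Bcl2, was at 27.6, 30.7 and 26.7 CPM in WT. In M92KO mice it was at 34.2, 31.4 and 33.4 CPM, above every WT library by a small margin. The log2 fold change was 0.22 ± 0.078 and the edgeR adjusted p-value 0.324. Mrpl33 (chr5:31596935-31664384, plus strand), which corresponds to bacterial L33, was at 48.8, 50.2 and 50.7 CPM in WT and at 55.4, 53.1 and 58.2 CPM in M92KO mice. Its log2 fold change was 0.16 ± 0.065, with an edgeR adjusted p-value of 0.388, and its exons overlap those of Gm43809 on the same strand. Mrpl30 (chr1:37890477-37898535, plus strand), which corresponds to bacterial L30, was at 93.1, 94.0 and 88.4 CPM in WT and at 103, 100.4 and 100.3 CPM in M92KO mice. The M92KO values of Mrpl30 lay close together, and its log2 fold change was 0.14 ± 0.061 with an edgeR adjusted p-value of 0.400. In these 3 genes the WT and M92KO libraries did not overlap, but Mrpl30 kept an unadjusted p-value under 0.05 in only 2 of 15 other settings, Mrpl33 in 5 and Mrpl41 in 10.

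In the small subunit, Mrps18b (chr17:35910379-35916389, minus strand) was at 41.7, 37.3 and 40.6 CPM in WT and at 48.4, 43.9 and 45.7 CPM in M92KO mice. Mrps18b is one of 3 paralogues of bacterial S18 in mammals, each of which sits at a different place in the mitoribosome. Its log2 fold change was 0.21 ± 0.073, with an edgeR adjusted p-value of 0.325, and its exons overlap those of Gm16279 on the other strand. The paralogues did not pass the threshold: Mrps18c, also of the small subunit, was at 25.2 ± 0.746 CPM in WT and 27.3 ± 1.94 CPM in M92KO mice, and Mrps18a, whose protein sits in the large subunit, was at 58.3 ± 1.24 and 59.5 ± 4.17 CPM. Differences between the paralogues were not tested.

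Mrps12 (chr7:28739641-28741820, minus strand), the decoding centre protein that corresponds to bacterial S12, was at 21.6, 22.0 and 21.5 CPM in WT and at 26.1, 26.3 and 23.0 CPM in M92KO mice. WT values were almost equal, and the third M92KO library was nearest to them. The log2 fold change was 0.21 ± 0.079 and the edgeR adjusted p-value 0.342. Mrps31 (chr8:22411361-22429665, plus strand) was at 38.1, 40.3 and 37.1 CPM in WT and at 41.6, 44.0 and 44.2 CPM in M92KO mice. Its log2 fold change was 0.17 ± 0.066, with an edgeR adjusted p-value of 0.364, and the groups were again apart. Across the 15 other settings, Mrps18b kept an unadjusted p-value under 0.05 in 13, Mrps12 in 8 and Mrps31 in 5.

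For each of these 8 genes the two-sided exact permutation test over the 6 libraries gave 0.1, which is the smallest value that 3 against 3 allows.

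**Figure D3:**
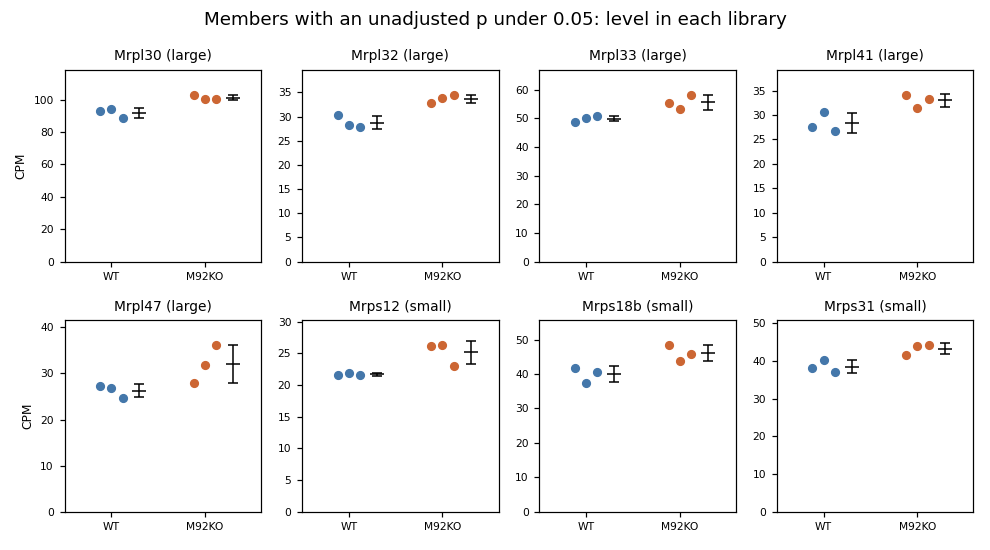
CPM in each library for the 8 members with an unadjusted p-value under 0.05, WT in blue and M92KO in orange, with the mean and SD of 3 libraries as black bars and axes that start at 0. In every panel the M92KO libraries lie above the WT libraries, by 10.3% (Mrpl30) to 22.0% (Mrpl47) on average.

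Genes of the factor-binding stalk of the large subunit, which calls elongation factors to the ribosome, did not pass the threshold. Mrpl12, the stalk protein that corresponds to bacterial L7/L12 and also binds the mitochondrial RNA polymerase, was at 123 ± 5.81 CPM in WT and 130.0 ± 8.35 CPM in M92KO mice (log2 fold change 0.082 ± 0.074). Mrpl10, which carries the L12 copies, was at 42.1 ± 1.22 and 43.2 ± 0.641 CPM, and Mrpl11 beside it at 42.3 ± 1.34 and 44.4 ± 1.85 CPM. All 3 differences were positive, the largest that of Mrpl12 at 5.87%.

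Members around the catalytic core and the tRNA sites did not pass the threshold. Mrpl2, near the peptidyl transferase centre, was at 71.9 ± 2.42 CPM in WT and 74.7 ± 3.14 CPM in M92KO mice. Mrpl27, also near that centre, was at 30.5 ± 1.36 and 33.7 ± 3.63 CPM, with the first M92KO library at 37.9 CPM and the others at 32.0 and 31.3 CPM (log2 fold change 0.14 ± 0.089). Mrpl3 had a log2 fold change of -0.0029 ± 0.062 and Mrpl16 of -0.022 ± 0.081. These last values were among the lowest of the large subunit, in which Mrpl9 (-0.022 ± 0.060), Mrpl46 (-0.0039 ± 0.069) and Mrpl35 (-0.0033 ± 0.068) were the other genes with the smallest p-values below 0, and none of these 5 passed the threshold.

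The exit tunnel, through which the new protein leaves, showed a gene whose groups did not overlap but which missed the threshold. Mrpl45, which tethers the mitoribosome to the inner membrane, was at 79.7, 80.4 and 79.5 CPM in WT and at 85.4, 84.4 and 91.9 CPM in M92KO mice (log2 fold change 0.13 ± 0.064, edgeR adjusted p-value 0.470). Mrpl23 and Mrpl24 at the rim of the tunnel had log2 fold changes of 0.036 ± 0.11 and 0.0025 ± 0.075. For Mrpl23 the first M92KO library was at 51.4 CPM and the others at 38.5 and 41.1 CPM, against 40.5, 42.8 and 44.5 CPM in WT, and without that library the log2 fold change was -0.098. Mrpl44, which resembles RNase III, was at 40.9 ± 0.667 CPM in WT and 45.9 ± 3.89 CPM in M92KO mice, with 1 M92KO library inside the WT range. Mrpl58, a hydrolase that frees stalled chains and is built into the large subunit, was at 32.3 ± 1.27 and 32.3 ± 3.68 CPM.

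Small subunit genes with defined roles did not pass the threshold apart from Mrps18b and Mrps12. Mrps6 had a log2 fold change of 0.21 ± 0.099, as large as that of Mrps12 but short of the threshold, with an edgeR adjusted p-value of 0.435, and its second M92KO library (16.1 CPM) lay inside the WT range of 15.3 to 16.6 CPM. Mrps6 also shares exonic sequence with Slc5a3 on the same strand. Mrps34, found only in mitochondrial ribosomes, was at 41.3 ± 2.57 CPM in WT and 45.1 ± 2.64 CPM in M92KO mice, and Mrps16 at 28.8 ± 1.98 and 31.5 ± 2.30 CPM. Mrps22, likewise particular to mitochondria, was at 24.7 ± 0.529 and 26.5 ± 2.37 CPM. Mrps7 of the head was at 76.0 ± 1.89 and 78.3 ± 8.22 CPM, and Mrps15 of the platform at 36.4 ± 1.42 and 38.6 ± 4.79 CPM. In both of the last genes the first M92KO library was the highest of all 6, at 87.3 and 43.9 CPM.

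Mrps9 had the most negative difference and was the only member with every M92KO library below WT. Its protein corresponds to bacterial S9, in the head of the small subunit. It was at 47.9, 50.1 and 47.6 CPM in WT and at 44.8, 44.0 and 47.5 CPM in M92KO mice, so the third M92KO library nearly touched the WT range. Its difference was -6.34%, a log2 fold change of -0.094 ± 0.065 with an edgeR adjusted p-value of 0.618. Mrps27, which has pentatricopeptide repeats and binds RNA, had a log2 fold change of -0.00074 ± 0.063. Mrps21, Mrps25 and Mrps11 were also just below 0, at -0.016 ± 0.084, -0.013 ± 0.068 and -0.010 ± 0.072.

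A few Mrps names do not mark small subunit proteins. Mrps18a and Mrps30 sit in the large subunit of the mammalian particle, and Mrps36 is a subunit of the oxoglutarate dehydrogenase complex of the tricarboxylic acid cycle. Mrps30 was at 36.8 ± 1.71 CPM in WT and 39.0 ± 2.28 CPM in M92KO mice. Mrps36 was at 57.3, 58.9 and 58.4 CPM in WT and at 63.0, 61.1 and 61.8 CPM in M92KO mice, a separation of groups with a log2 fold change of 0.090 ± 0.059 that did not pass the threshold. With these genes placed by structure and Mrps36 left out, the medians were 0.077 (large) and 0.092 (small), and 5 and 3 genes were higher.

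Transcript levels per length differed widely between members. Per kb of annotated transcript, WT levels in the large subunit ran from 6.35 (Mrpl19) to 310.1 CPM per kb (Mrpl42), a 48.9-fold range with a median of 36.5. Mrpl30 and Mrpl33 followed Mrpl42 at 139 and 104 CPM per kb, and Mrpl57 and Mrpl47 were next to the lowest at 7.71 and 7.79. In the small subunit the range was 31.0-fold, from 5.14 (Mrps35) and 5.55 (Mrps26) to 91.5 (Mrps36) and 159.5 CPM per kb (Mrps21), with a median of 29.3. The lowest genes have long annotated transcripts, 5000 bases for Mrpl19, 4162 for Mrps35 and 6073 for Mrps25 (8.02 CPM per kb), so their levels per length depend on whether muscle uses those long forms, which gene counts do not show. The order of the levels was almost the same in both genotypes, with a Spearman correlation of 0.996 over the 78 genes, which share the same transcript lengths in both groups. Mrpl42 itself was at 205 ± 8.58 CPM in WT and 210.4 ± 4.15 CPM in M92KO mice.

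**Figure D4:**
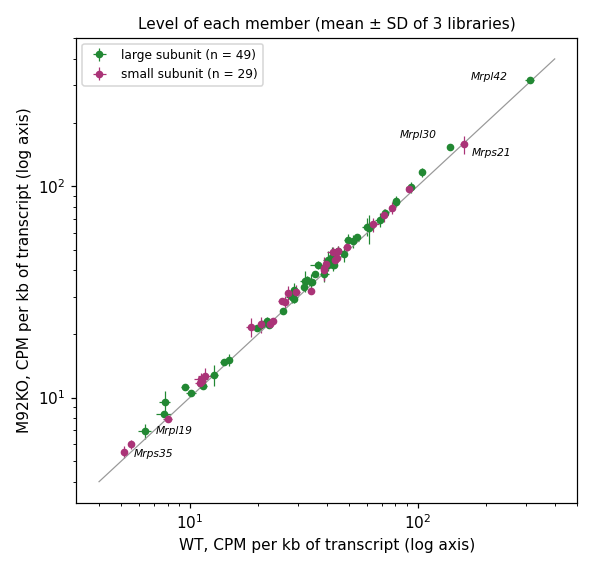
Level of each member per kb of transcript (mean ± SD of 3 libraries) in WT on the horizontal and M92KO on the vertical axis, both logarithmic, with the line of equal levels. The 78 points follow the line over a 60.3-fold range, most of them slightly above it.

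Other genes of mitochondrial translation were counted in 4 lists. Of 5 mitoribosome proteins with other symbols, Chchd1 of the small subunit was higher at the unadjusted threshold (77.2, 72.9 and 75.5 CPM in WT, 83.7, 82.3 and 82.3 CPM in M92KO mice, log2 fold change 0.14 ± 0.060, edgeR adjusted p-value 0.400). Its p-value lay just under the threshold, and 0 genes of this list passed with DESeq2's size factors, DESeq2's Wald test, the replicate block, the offsets, or without any WT library. Gadd45gip1 and Aurkaip1 had log2 fold changes of 0.098 ± 0.097 and 0.087 ± 0.11, Dap3 of 0.023 ± 0.067 and Ptcd3 of -0.041 ± 0.085. Of 14 translation factors tested, 0 were higher and 0 lower, 6 were positive and the median was -0.0050. Among them, the initiation factor Mtif2 was at 0.078 ± 0.065, the initiation factor Mtif3 at -0.074 ± 0.070 and Mtres1, a rescue factor, at 0.12 ± 0.076 (log2 fold changes).

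Of 27 genes for assembly of the particle and modification of its RNA, 1 was higher and 1 lower, 18 were positive and the median was 0.034. The higher one was Mpv17l2, an inner membrane protein needed for assembly, at 10.1, 9.63 and 10.8 CPM in WT and 12.7, 11.9 and 11.5 CPM in M92KO mice (log2 fold change 0.24 ± 0.094, edgeR adjusted p-value 0.364). The lower one was Noa1, a GTPase of mitoribosome assembly, at 25.6, 26.0 and 28.0 CPM in WT and 24.0, 22.3 and 24.3 CPM in M92KO mice (log2 fold change -0.17 ± 0.075, edgeR adjusted p-value 0.397). Mterf4, which brings an RNA methyltransferase to the large subunit, was at 0.24 ± 0.10 and missed the threshold. Of 14 genes for copying, transcribing and processing mitochondrial DNA and RNA, 0 were higher and 0 lower, 11 were positive and the median was 0.029, with Slirp at 0.13 ± 0.090, Polg at -0.067 ± 0.060 and Polg2 at -0.19 ± 0.17. All of these lists are short, and their counts stand beside the background of 5.47% higher and 6.92% lower.

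Promoters of the members were read because genes of 1 particle may share control sequences. RefSeq's GRCm38.p6 promoter windows, from 250 bases before to 50 bases after the start, were at hand for 69 members among 12493 tested genes. A gene with several annotated starts has several windows and was counted once, if any of them held the motif. The motif of NRF1, a factor of nuclear genes for mitochondria (GCGCATGC, either strand), was in 8 of 69 members (11.6%) against 5.13% of all these genes. By subunit, it was in 7 of 43 large (16.3%) and 1 of 26 small subunit genes (3.85%). The ETS core (CCGGAAG, either strand) was in 26 (37.7%) against 17.5%, and a YY1 motif (AAGATGGC, either strand) in 12 (17.4%) against 4.68%. A GC box (GGGCGG, either strand) was in 34 (49.3%) against 62.8%. That lower share lay in the large subunit, with 17 of 43 genes (39.5%), while the small subunit had 17 of 26 (65.4%). The E-box CACGTG was in 5 (7.25%) against 11.0%. In 16 of the 69 members none of the 5 motifs was found. Stretches of 30 bases on the gene's strand, with the motif in capitals, are printed for some of the members described above that carry the NRF1, ETS or YY1 letters, both past and short of the threshold. Mrpl32 has 4 NRF1 matches, of which 2 overlap, and in Mrpl33 an NRF1 and an ETS match lie side by side.
Mrpl32, NRF1, chr13:14613085-14613114, minus strand: aagaggggcctGCGCATGCtctgagcgagg
Mrpl33, NRF1, chr5:31613928-31613957, plus strand: taccggaacccGCGCATGCcccggaagtag
Mrps18b, NRF1 reverse, chr17:35916394-35916423, minus strand: gcgtgtcccgaGCATGCGCagtcgctcttc
Mrpl9, NRF1, chr3:94443297-94443326, plus strand: gaggcgcagctGCGCATGCgcggggtcctt
Mrpl10, NRF1 reverse, chr11:97041437-97041466, plus strand: cccagctccacGCATGCGCatagcggccct
Mrps12, ETS, chr7:28741802-28741831, minus strand: aaggaggaaccCCGGAAGgggctggaggta
Mrpl3, ETS, chr9:105053238-105053267, plus strand: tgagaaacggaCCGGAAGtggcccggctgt
Mrpl42, YY1, chr10:95501904-95501933, minus strand: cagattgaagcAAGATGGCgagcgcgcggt
Mrps7, YY1, chr11:115604147-115604176, plus strand: tgacagcggccAAGATGGCtgcccccgcgc
Mrps27, YY1, chr13:99344789-99344818, plus strand: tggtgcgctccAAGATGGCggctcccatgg

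The YY1 matches shown lie 14 to 27 bases after the RefSeq start, and the NRF1 matches of Mrpl32 and Mrpl33 shown lie 66 and 12 bases before it. Both of these NRF1 matches fall inside the GENCODE spans given above for the genes, whose starts differ from RefSeq's. Genes with these letters include members that were higher (Mrpl32, Mrpl33, Mrps18b, Mrps12) and members that did not pass the threshold (Mrpl3, Mrpl9, Mrpl10, Mrpl42, Mrps7, Mrps27), and a match of letters says nothing of binding in muscle.

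Few of these genes carry the complement of the miR-92b-3p seed printed at the start. In annotated 3′-UTRs of GENCODE M21, 7 of 77 members (9.09%) held a 7-base match (GTGCAAT, or TGCAATA with its final A), against 14.3% of 13658 tested genes with a 3′-UTR, and 0 members held the full 8-base match, against 2.82%. Members have short 3′-UTRs, with a median of 387 bases against 1174 bases. The part of this length in the share of matches was not tested. For miR-92b-5p, 0 of 77 members held a match (CCGTCCC or CGTCCCA), against 5.83% of genes. The 7 members were Mrpl33, Mrpl47, Mrpl57, Mrpl58, Mrps14, Mrps16 with 2 sites, and Mrps25. Sites of the 2 members that were higher at the unadjusted threshold, and of Mrpl57, are printed with the matching bases in capitals, on the gene's strand of GRCm38.
Mrpl33, chr5:31622486-31622509: tcgaactctgcagtGTGCAATgaa
Mrpl47, chr3:32725694-32725717: aatagtatttttaaTGCAATAttt
Mrpl57, chr14:57827938-57827961: aatggatacaaacaGTGCAATttt

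Differences of the 7 genes with a match ran from -0.013 to 0.29, where all members ran from -0.094 to 0.29. Mrpl47 had a log2 fold change of 0.29 and Mrpl33 of 0.16, Mrps16 with its 2 sites of 0.13, Mrpl57 of 0.11 and Mrps14 of 0.10, while Mrpl58 was at -0.0017 and Mrps25 at -0.013. The median was 0.11 for the 7 genes and 0.080 for the other 71, of which 6 were higher at the unadjusted threshold.

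Many members begin near the start of another gene on the opposite strand. In GENCODE M21, 32 of 78 members (41.0%) had the start of a protein-coding gene of the opposite strand within 1000 bases, against 14.7% of 13743 tested genes. Only the distance between starts was asked for, so the pairs include genes that overlap. Exons overlap in Mrpl47 and Ndufb5, Mrpl43 and Twnk, and Mrps7 and Gga3, among others, and counts of such pairs may share reads. Several of the partners also serve mitochondria (named here after their values were seen). Sars2, the mitochondrial seryl-tRNA synthetase, lies beside Mrps12, and Twnk, the mitochondrial DNA helicase, beside Mrpl43. The complex I genes Ndufb5 and Ndufs6 lie beside Mrpl47 and Mrpl36. Mrps11 and Mrpl46, a small and a large subunit gene, have starts 412 bases apart, and their exons overlap. Of 29 partner entries with a test, 0 were higher and 2 lower at the unadjusted threshold, where 5.47% of all genes were higher and 6.92% lower. Counts this small cannot be told from that background. The partners had a median log2 fold change of 0.030 beside 0.11 for their members.

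Of 6 partners tested beside members past the threshold, 3 had positive and 3 negative differences, and no test compared partners with members. Psma2, a proteasome gene that starts 75 bases from Mrpl32, was at 86.0 ± 1.59 CPM in WT and 93.8 ± 2.11 CPM in M92KO mice (log2 fold change 0.13 ± 0.060, edgeR adjusted p-value 0.452). Mitd1 beside Mrpl30 had a log2 fold change of 0.11 ± 0.18. Ndufb5 beside Mrpl47 had a log2 fold change of 0.075 ± 0.079 and Sars2 beside Mrps12 of -0.044 ± 0.11. Pnpla7, a lysophospholipase 935 bases from Mrpl41, was lower at the unadjusted threshold, at 81.4 ± 6.92 CPM in WT and 65.7 ± 6.89 CPM in M92KO mice (log2 fold change -0.31 ± 0.097, edgeR adjusted p-value 0.276). Ppp1r10, a nuclear subunit of protein phosphatase 1 whose start is 45 bases from that of Mrps18b, was lower by more, from 49.5 ± 2.44 to 29.2 ± 8.86 CPM (log2 fold change -0.76 ± 0.18, edgeR adjusted p-value 0.188). Within that pair one gene was higher and the other lower, while Mrpl46 and Mrps11 both stayed at the WT level (-0.0039 and -0.010).

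**Figure D5:**
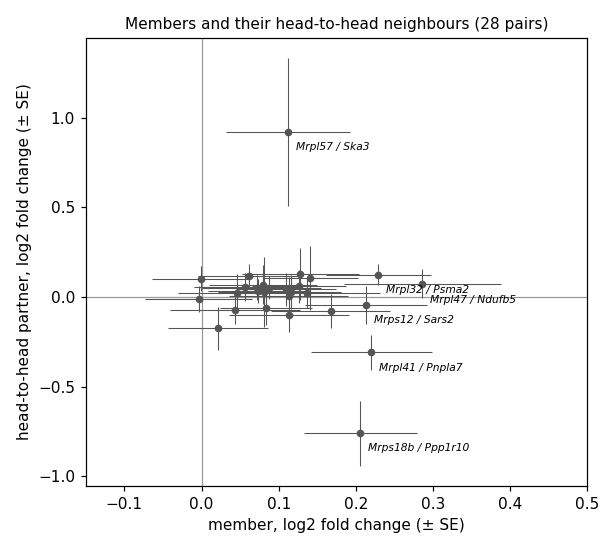
Log2 fold change of members (horizontal) and of the gene that starts within 1000 bases on the opposite strand (vertical), each with its SE, for 28 pairs. Most pairs lie near 0 on both axes, and Ppp1r10 beside Mrps18b lies lowest, at -0.76.

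Gas is a mixed tissue, and in bulk RNA fewer cells of a type and less RNA per cell cannot be told apart. Fast fibre markers dominated all libraries, with summed levels of 122794 to 139719 CPM in WT and 120648 to 134334 CPM in M92KO mice, and 0 of 10 passed the threshold. Of 8 slow or oxidative fibre markers 1 was higher, Myh2 of oxidative fast fibres, at 2124, 2239 and 1612 CPM in WT and 2018, 3575 and 4099 CPM in M92KO mice. Myh2 had an edgeR adjusted p-value of 0.314, and its groups overlapped. The list had a median log2 fold change of -0.22, with 3 of 8 positive, and Myl3 (-0.61 ± 0.37), Tnnt1 (-0.33 ± 0.18) and Atp2a2 (-0.23 ± 0.11), markers of slow fibres, were among those below 0. For Atp2a2 every M92KO library was below WT, and none of these 3 passed the threshold. The M92KO library lowest in Myh2, the first, was the highest in mitoribosomal genes. The third M92KO library, highest in Myh2, stood above the second in both subunits. Among WT libraries, the third was the lowest both in Myh2 and in the summed large subunit genes. At the unadjusted threshold fibroblast markers were lower (3 of 5, summed 1645 to 2188 CPM in WT and 1116 to 1527 CPM in M92KO mice), as were 3 of 5 Schwann cell markers (121 to 164 and 121 to 125 CPM) and 1 of 5 macrophage markers (43.0 to 44.7 and 27.3 to 41.3 CPM). Satellite cell markers were higher in 2 of 5 (73.1 to 96.9 and 91.3 to 97.9 CPM). Endothelial markers (5, summed 732 to 804 and 646 to 833 CPM), fat cell markers (4 tested, 304 to 361 and 304 to 376 CPM) and red cell markers (5, 74.0 to 223 and 143 to 336 CPM) had 0 calls. The part of these cell types in the members' differences was not tested.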

How the data were processed

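The study sequenced RNA of 6 Gas muscle samples, 3 for each genotype. The authors deposited unnormalized read counts for 34714 gene symbols. The submitters' processing notes name GRCm38 and mm10. The aligner, the counting program and its strand setting are not given in the sources used here. Differences between genotypes were fitted with edgeR 4.0.16 under R 4.3.3 (filterByExpr with a minimum count of 10 and a minimum total of 15, TMM, glmQLFit and glmQLFTest without a covariate), and p-values were adjusted with the Benjamini-Hochberg method over all 15788 genes tested. Single members were also compared with an exact permutation test on log2(CPM + 0.5). The fit was tested on simulated counts. A floor of 3 counts came to 0.0629 to 0.0916 CPM and covers counting error only.

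GENCODE M21 (GRCm38) supplied positions, transcript lengths and 3′-UTRs for 26155 symbols, 424 of them by a synonym. Length per gene is the median of its basic protein-coding transcripts. Promoters and microRNAs are RefSeq's (GRCm38.p6). Python 3.11.15 (pandas 2.3.3, numpy 2.4.6, matplotlib 3.10.9) served for tables and plots.

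The members, gene lists and tests were chosen with earlier results of these data known. The members named are those of 25 fixed roles, in each subunit up to 5 genes with the smallest p-values among positive and up to 5 among negative differences, the 3 highest and 3 lowest levels per length, and up to 3 genes of each pathway list. A few others were named after their values were seen, where a count was small. Alternatives were DESeq2's size factors, library totals and upper quartile factors in edgeR, DESeq2 1.42.0, the study's steps (quantile normalization, log2 after adding 1, limma 3.58.1), no filter on low counts, leave-one-out fits, the replicate number as a covariate, offsets for length and GC content (lowess span 0.3) with and without that covariate, and subunits by structure.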

Additional observations from a re-analysis of the deposited data

How the results depend on the processing

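The number of members lower at the unadjusted threshold was 0 in every alternative run, and the medians of both subunits stayed above 0. The 5 large and 3 small subunit genes that were higher became 3 and 1 with library totals alone, which moved the median of all genes to -0.028 and the subunits' medians to 0.048 and 0.060. They became 3 and 2 with DESeq2's Wald test, 3 and 2 without the filter on low counts, and 9 and 5 with the study's steps. With length and GC offsets they became 3 and 1 (medians 0.046 and 0.035), and with the same offsets and the replicate block 2 and 0 (medians 0.045 and 0.031). Each library left out in turn gave 1 to 8 large and 1 to 5 small subunit genes: 1 large without the third WT or the third M92KO library and 8 without the second M92KO library, 5 small without the first M92KO library and 1 without any WT library. Over all genes, 1955 calls became 1217 to 2956, the lowest without the second WT library (1273 without the third) and the highest without the first M92KO library. Among the 4 pathway lists, 3 calls became 0 with DESeq2, 6 with the study's steps, 1 without the filter, 1 with offsets with or without the block, 0 with the block alone, and 0 to 6 with a library left out.

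The replicate numbers of the labels were checked for pairing. Deviations of same-numbered libraries correlated at 0.081, 0.038 and 0.015 over 15788 genes, and those of different numbers at -0.069 to 0.036. Each M92KO library correlated best with the WT library of its own number. The third WT library, however, correlated better with the second M92KO library (0.036). Values this close to 0, from 3 libraries a group, cannot show whether the numbers pair the samples. With the replicate block 3 large and 2 small subunit genes were higher, and 1691 genes in all.

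Of 43 named members, 15 changed sign in 52 of their refits, always at differences under 0.10 on the log2 scale. With both kinds of offsets Mrpl23 was at -0.035 and -0.037, Mrpl24 at -0.039 and -0.039, Mrpl42 at -0.037 and -0.037, Mrps18a at -0.034 and -0.034, Mrpl3 at 0.011 and 0.011, Mrpl35 at 0.010 and 0.011, and Mrps25 at 0.033 and 0.030, while Mrpl58 was at 0.0036 with offsets alone. When each library was left out in turn, Mrpl16 lay between -0.086 and 0.040, Mrpl23 between -0.098 and 0.12, Mrpl24 between -0.053 and 0.041, Mrpl3 between -0.027 and 0.017, Mrpl35 between -0.038 and 0.030, Mrpl46 between -0.021 and 0.020, Mrpl58 between -0.098 and 0.058, Mrps11 between -0.040 and 0.026, Mrps15 between -0.017 and 0.16, Mrps18a between -0.018 and 0.081, Mrps21 between -0.088 and 0.054, Mrps25 between -0.043 and 0.021, Mrps27 between -0.022 and 0.025, and Mrps7 between -0.042 and 0.11. With library totals Mrpl24 was at -0.025, without the filter at -0.0030, and with upper quartile factors Mrpl58 was at 0.00023. With the study's steps Mrpl35 was at 0.00040, Mrpl46 at 0.011, Mrpl58 at 0.012, Mrps11 at 0.014 and Mrps27 at 0.0011. The cause was not tested.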
